A study of Mus musculus with 5 samples.

Results

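Committed oligodendrocyte progenitors, the cells between the dividing oligodendrocyte progenitor cell (OPC) and the myelinating oligodendrocyte, were described in single-nucleus RNA profiles of the mouse paraventricular hypothalamus. Members were chosen nucleus by nucleus. A member had at least 1000 unique molecular identifiers (UMIs, 1 per captured RNA molecule), at most 5% of them mitochondrial, and fewer than 15 per 10000 from the neuronal genes Rbfox3, Snap25 and Syt1. It also had at least 3 UMIs, and at least 3 per 10000, of Enpp6 and Bmp4 together, and at least 1 UMI of Bcas1. The rule gave 145 nuclei of the 31376 that passed the UMI and mitochondrial limits, out of 32292 deposited. Enpp6, Bmp4, Bcas1 and the neuronal genes chose the members, so their levels below are description only.

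OPCs are kept as progenitors by platelet-derived growth factor signalling through Pdgfra. On commitment they leave the cell cycle, lose that receptor and pass through a short premyelinating stage before the myelin genes reach their full level. Enpp6, a choline-specific phosphodiesterase, and Bcas1, a protein of early myelinating cells, mark newly forming oligodendrocytes. Bmp4 encodes a secreted bone morphogenetic protein, and Tcf7l2 encodes a high-mobility-group transcription factor of Wnt signalling that is known for this stage.

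The study made 5 libraries on the 10x Genomics platform in 2 experiments on male mice of C57BL6 background, all carrying OT-Cre, a Cre recombinase meant for oxytocin neurons. In the first experiment OT-Cre; Rosa26tm9(CAG-tdTomato)Hze (Ai9) mice aged 5 weeks came from mothers given, on gestation day 12.5, either saline (10 mL/kg, 1 library) or valproic acid (VPA, 500 mg/kg, 1 library). In the second, OT-Cre; Rosa26dreaddm3 (stop-hM3) mice aged 5 to 7 weeks, in which Cre permits the designer receptor hM3 that responds to clozapine N-oxide (CNO), had all been exposed to VPA before birth and carried an adeno-associated virus injected in the paraventricular and supraoptic regions. They received saline (1 library, called the hM3 control) or CNO (2 libraries, CNO replicates 1 and 2) on postnatal day 2. Each condition pooled nuclei of 2 to 4 mice, so that a library is 1 sample, and the sort on DAPI favoured large nuclei. With 1 saline and 1 VPA library there is no replicate check of that difference. Values per library are given in the order saline, VPA, hM3 control and then the CNO libraries, replicate 1 first.

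The label was checked on genes that the rule did not use: Tcf7l2, 9630013A20Rik (a long non-coding RNA of committed progenitors), Itpr2 (an inositol trisphosphate receptor of the endoplasmic reticulum) and Fyn (a Src-family kinase needed for myelination). Their summed level split the members into 110 nuclei at 62.2 or more per 10000 UMIs and 35 nuclei at 6.70 or fewer, with none between. A limit of 20 per 10000, set after this gap was seen, separates these 4-marker nuclei from the other 35, for which the data go against the label. The 35 held no Bmp4 UMI and a median of 3 Enpp6 UMIs (range 3 to 10). All 35 held at least 3 UMIs of Mog, Mag and Aspa, genes of mature oligodendrocytes, as did 41 of the 110.

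In the pooled counts of the 35, Mog, a surface protein of myelin, stood at 1014 CPM (UMIs of the gene per 1000000 UMIs) and Aspa, an enzyme of acetylaspartate breakdown, at 987 CPM, against means of 853 and 815 CPM in mature oligodendrocyte nuclei. Tcf7l2, which the split used, stood at 59.0 CPM. In the 110 4-marker nuclei Mog was at 90.6 CPM, Aspa at 18.7 CPM and Tcf7l2 at 3375 CPM. Across 3501 genes, with the gate genes left out, the log2 profile of the 35 had a Pearson correlation of 0.86 with mature oligodendrocytes and of 0.21 with OPCs. The profile of the 110 had 0.52 with mature oligodendrocytes and 0.57 with OPCs. These correlations are across genes, which are not independent, and describe these libraries.

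Four-marker nuclei numbered 31 of 36 members in saline, 46 of 48 in VPA, 20 of 28 in the hM3 control, and 7 of 26 and 6 of 7 in the CNO libraries (replicates 1 and 2). CNO replicate 1 stands apart, since 19 of its 26 members lack the 4 markers. Comparisons with mature oligodendrocytes that rest on it are therefore also given without it where that changes a list's number of higher or lower genes, or the call of a gene described.

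**Figure D1:**
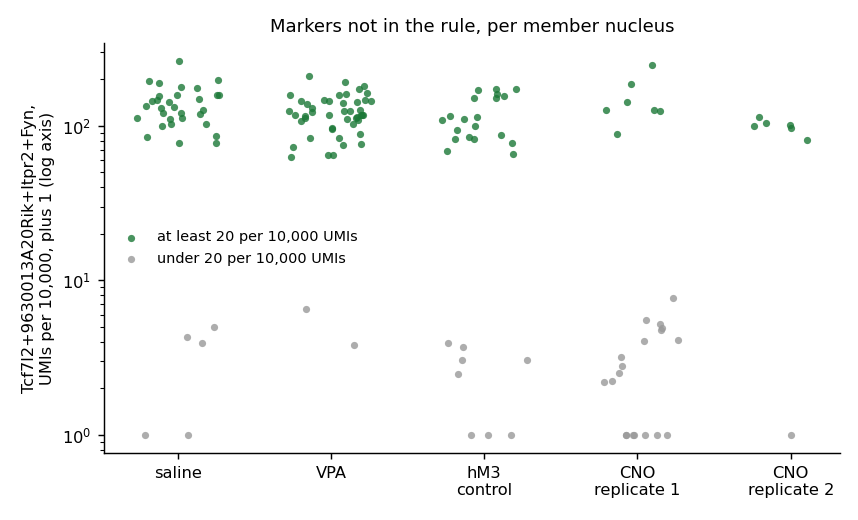
Summed UMIs of Tcf7l2, 9630013A20Rik, Itpr2 and Fyn per 10000 UMIs, plus 1, on a log axis, for each of the 145 member nuclei by library, 1 point per nucleus. The green points lie at 62.2 or more per 10000 and the other points at 6.70 or fewer, and 19 of the 26 points of CNO replicate 1 are in the lower group.

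Most nuclei without the 4 markers sat at the edge of the rule. Members with 3 Enpp6 and Bmp4 UMIs held the 4 markers in 12 cases and lacked them in 21, those with 4 UMIs in 13 and 9 cases, and those with 5 or more in 85 and 5 cases. Just outside, nuclei with 2 such UMIs and Bcas1 held the 4 markers in 13 cases and lacked them in 47. Counted over all non-members under the neuronal limit, a count that can take in some of those 13, 47 nuclei had the 4 markers at 50 or more per 10000, 28 of them in the VPA library. An Enpp6 UMI was seen in 8.37 to 14.6% of mature oligodendrocyte nuclei of each library (median depths 1992 to 3928 UMIs) and in 0.621 to 2.88% of nuclei over the neuronal limit (median depths 6455 to 18112 UMIs).

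The members' median depth was 6885, 3938, 6560, 5347 and 3884 UMIs, and their summed depth ran from 31115 UMIs (CNO replicate 2) to 266826 UMIs (saline). The 5 libraries held 52506958 to 76243280 UMIs. Pairs of libraries shared 4 to 23 barcodes, and 1 member barcode was shared, between VPA and CNO replicate 2. Of the members, 4 were among the nuclei with the highest doublet scores (the top 3.94 to 8.82% of each library), 2 in VPA and 2 in CNO replicate 1. Oxt, the hormone gene of the dissected region, gave 17 UMIs over all members and Avp 6, and Oxtr and Cre gave none.

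Nuclei taken by the rule were rare in every library, and 35 of the 145 were not 4-marker nuclei. The rule took 36 of 5470 nuclei in saline (0.658%, exact 95% binomial interval 0.461 to 0.910), 48 of 10773 in VPA (0.446%, 0.329 to 0.590) and 28 of 5162 in the hM3 control (0.542%, 0.361 to 0.783). In the CNO libraries it took 26 of 4284 (replicate 1, 0.607%, 0.397 to 0.888) and 7 of 5687 (replicate 2, 0.123%, 0.0495 to 0.253). The share was lowest in CNO replicate 2, and the intervals of the other 4 libraries, which cover counting error only, overlap one another. Members made up 8.22, 6.76, 5.37, 2.70 and 1.07% of the oligodendrocyte lineage (members, OPCs and mature oligodendrocytes together).

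Limited to 4-marker nuclei, the shares of all nuclei were 0.567, 0.427, 0.387, 0.163 and 0.106%, or 33.0, 26.7, 21.1, 9.86 and 8.96 per 100 OPC nuclei. Both CNO libraries lay below the hM3 control by these counts, whereas under the rule alone CNO replicate 1 lay above it. The control is 1 library, and no test was made.

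The order of saline and VPA depended on thinning, on the denominator once a depth limit was set, and on the markers used. Of lineage nuclei without a depth limit, VPA was the lower (6.76% against 8.22%). Under the rule the share was 0.213 percentage points smaller in VPA. When every nucleus was thinned to 2000 UMIs, which left out 136 saline and 1333 VPA nuclei, the rule took 0.281% in saline, 0.339% in VPA, 0.297% in the hM3 control and 0.119 and 0.139% in the CNO libraries, and the difference between saline and VPA changed sign. Of all nuclei with at least 2000 UMIs and no thinning, members were 0.675% in saline and 0.487% in VPA, so that VPA stayed the lower. Of lineage nuclei with at least 2000 UMIs, members made up 8.55% in saline and 9.85% in VPA, and after thinning 4.87% and 9.09%, so that VPA was the higher in both shares of the lineage. Among nuclei with fewer than 3 UMIs of astrocyte, microglial and vascular markers, which left 2697 saline and 7750 VPA nuclei, members were 1.26% and 0.594%. Taking nuclei by the 4 markers at 50 per 10000 in place of the rule, the shares were 0.640, 0.687, 0.465, 0.257 and 0.229%. The sort can also set these shares, and its part was not tested.

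**Figure D2:**
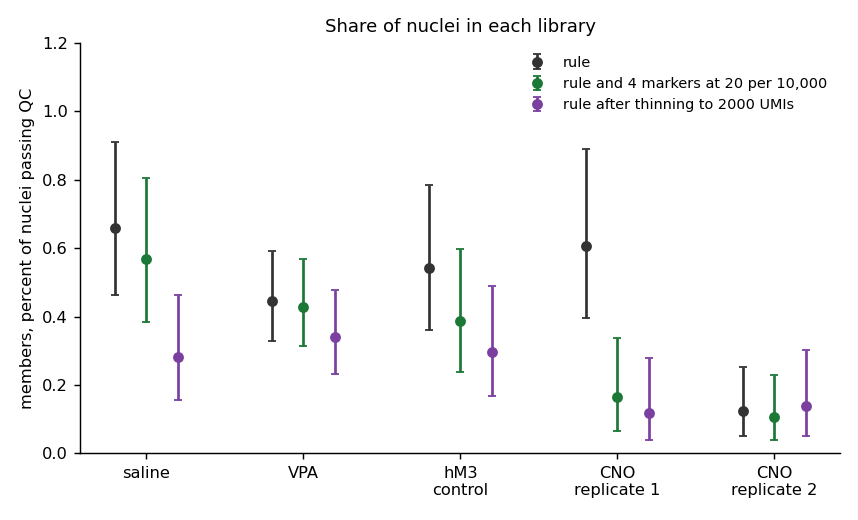
Members as a percent of nuclei passing QC in each library, with exact 95% binomial intervals, by the rule, by the rule with the 4 markers at 20 per 10000 or more, and by the rule after thinning every nucleus to 2000 UMIs. CNO replicate 1 moves from 0.607% to 0.163% when the 4 markers are required.

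The neighbouring stages served for comparison: 499 OPC nuclei, taken by at least 3 UMIs and 3 per 10000 of Pdgfra and Cspg4, and 2639 mature oligodendrocyte nuclei, taken likewise by Mog, Mag and Aspa. Counts were summed per library and stage and compared within library by edgeR's quasi-likelihood test over the 4 libraries with at least 10 members, which leaves out CNO replicate 2. Against OPCs, 1944 of 5397 genes tested differed (36.0%) at a Benjamini-Hochberg adjusted p of 0.05, 812 higher in members (15%) and 1132 lower (21.0%). Against mature oligodendrocytes, 1071 of 7717 differed (13.9%), 612 higher (7.93%) and 459 lower (5.95%). Without CNO replicate 1 the counts were 974 higher and 1218 lower against OPCs, and 895 higher and 989 lower against mature oligodendrocytes. All members were summed, and in CNO replicate 1 the 19 that were not 4-marker nuclei gave 113572 of 165095 UMIs. Stages were set by other genes of the same nuclei, so genes whose RNA runs with Enpp6, Bmp4 or Bcas1 in a nucleus are favoured by the choice of members.

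Of 5171 genes in both tests, 313 were higher in members than in both neighbours (6.05%) and 155 lower than in both (3.0%). A further 66 were lower than in OPCs and higher than in mature nuclei, and 72 higher than in OPCs and lower than in mature nuclei, which places them between the neighbours.

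**Figure D3:**
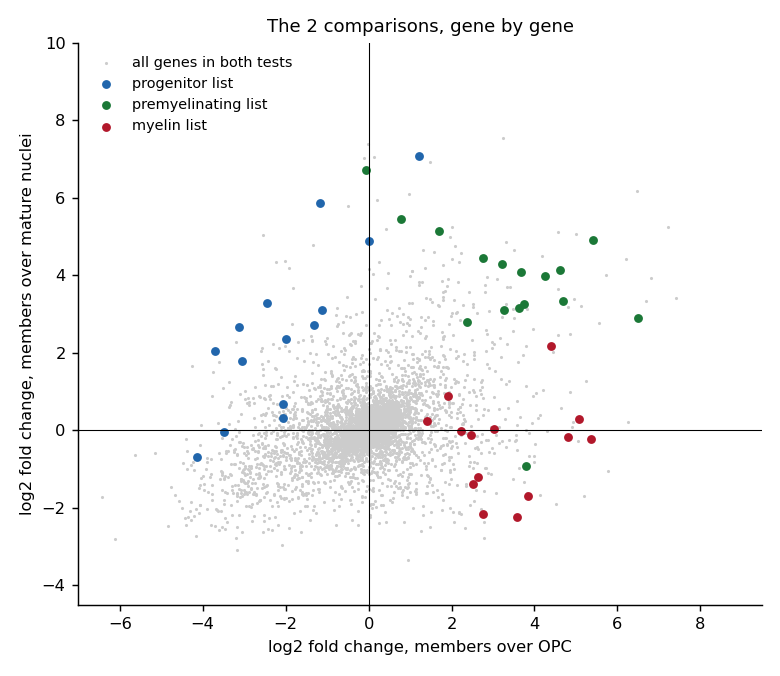
Log2 fold change of members over OPC nuclei (horizontal) and over mature oligodendrocyte nuclei (vertical), from edgeR over 4 libraries, 1 point per gene in both tests, with 3 gene lists coloured. Premyelinating genes lie mainly in the upper right, progenitor genes mainly in the upper left, and myelin genes to the right near and below the horizontal line.

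A set of genes was high in members and low on both sides. Frmd4a, which encodes a FERM-domain scaffold protein of cell polarity (chr2:4017717-4614043, mm10, plus strand), stood at 29731, 26396, 18887, 6572 and 15941 CPM in members. It stood at 518 to 1265 CPM in OPC nuclei and 431 to 764 CPM in mature nuclei, so that the lowest member library lay above every library of either neighbour. CNO replicate 1 was the low library, and its 7 nuclei with the 4 markers alone gave 20709 CPM. The log2 fold change was 5.01 (SE 0.49, adjusted p = 1.71e-05, edgeR) over OPCs and 5.07 (SE 0.55, adjusted p = 0.000405) over mature nuclei, higher in 4 of 4 libraries in both.

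Tcf7l2 (chr19:55741820-55933654, plus strand) stood at 3504, 2647, 2545, 1557 and 2571 CPM in members. It stood at 168 to 236 CPM in OPCs and 104 to 246 CPM in mature nuclei, with no overlap. The log2 fold changes were 3.68 (SE 0.29, adjusted p = 6.1e-06, edgeR) and 4.08 (SE 0.29, adjusted p = 7.44e-05). The non-coding 9630013A20Rik (chr14:84458639-84476424, minus strand) stood at 3823, 2966, 1988, 842 and 2378 CPM in members, against 35.3 to 139.8 CPM in OPCs and 11.0 to 274 CPM in mature nuclei, again with no overlap. Its log2 fold changes were 5.42 (SE 0.40, adjusted p = 4.98e-06, edgeR) and 4.92 (SE 0.59, adjusted p = 0.000681). It is annotated antisense to Pcdh17, and whether the counting used strand is not given in the sources used here.

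Ptger1, a prostaglandin E receptor, stood at 195, 192, 90.6, 84.8 and 0 CPM in members, against 0 to 3.55 CPM in OPCs and 0.520 to 7.18 CPM in mature nuclei. It had no UMI in the 7 members of CNO replicate 2 and was high in the 4 libraries tested, with log2 fold changes of 6.47 (SE 0.49) and 6.17 (SE 0.45, adjusted p = 9.14e-05, edgeR). It was seen in 12 of 36 members in saline, 13 of 48 in VPA, 9 of 28 in the hM3 control and 3 of 26 in the first CNO library, and it overlaps another annotated gene. Epb41l2, a linker of membrane and cytoskeleton in the band 4.1 family, stood at 2054, 2222, 1848, 678 and 1832 CPM in members, against 53.2 to 153 CPM in OPCs and 85.4 to 115 CPM in mature nuclei, with no overlap.

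The naming rule took the 15 genes higher than both neighbours in every library tested with the largest smaller fold change. The other 10 were Gm45600, Kif19a (a kinesin), Gm47134, Pde9a (a cyclic GMP phosphodiesterase), Pik3r3 (a regulatory subunit of phosphoinositide 3-kinase), Dnah10 (a dynein heavy chain), 9530059O14Rik, Gm13883, Pdcd4 (an inhibitor of translation) and Nhsl2. Their smaller log2 fold change ran from 3.51 (Nhsl2, over OPCs) to 5.24 (Gm45600, over mature nuclei). Gm45600 is annotated antisense within Enpp6, a gene of the rule, Gm47134 on the other strand within 9530059O14Rik, and Gm13883 antisense to D430041D05Rik, so their reads cannot be told apart from those of the partner without strand. Each of the 15 kept its calls in all of its 21 or 22 alternative tests, counted over both comparisons together.

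**Figure D4:**
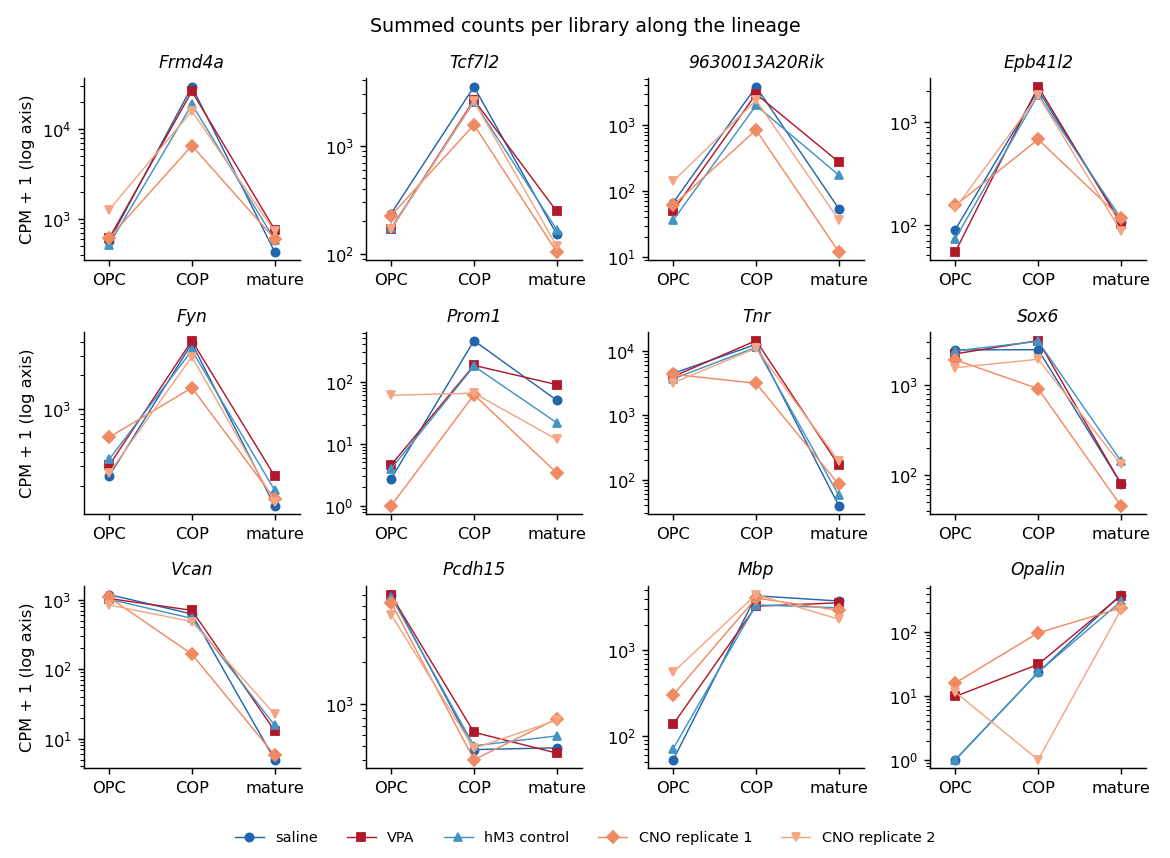
CPM plus 1 (log axis) of 12 genes in summed OPC, committed progenitor (COP) and mature oligodendrocyte nuclei, 1 line per library. Frmd4a, Tcf7l2, 9630013A20Rik, Epb41l2 and Fyn peak in the middle stage in all 5 libraries, Sox6 and Tnr lie lower in members than in OPCs in CNO replicate 1, and Mbp is in members near its level in mature nuclei.

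Because these genes peak together, the 250 bases before the annotated starts (RefSeq, GRCm38.p6) were searched on both strands for a TCF/LEF motif (ATCAAAG) and a SOX motif (ACAATG), neither of which holds the other. Of the 15 named genes 8 had an entry. The TCF/LEF letters were in 0 of the 8 and in 3.23% of all 27025 promoters. The SOX letters were in 2 of the 8, Tcf7l2 and 9630013A20Rik, and in 11.0% of all promoters. Of the other promoters read, that of Fyn held the TCF/LEF letters, that of Enpp6 the SOX letters, and those of Bmp4 and Itpr2 neither. Shown are the promoters of Tcf7l2 and 9630013A20Rik and that of Enpp6, the main gene of the rule, with each SOX match in capitals, 5′ to 3′ on the strand of the gene. They cover chr8:46986637-46986886 for Enpp6 (plus strand), chr19:55741560-55741809 for Tcf7l2 (plus strand) and chr14:84476425-84476674 for 9630013A20Rik (minus strand). A match describes the letters and shows no binding.
Enpp6: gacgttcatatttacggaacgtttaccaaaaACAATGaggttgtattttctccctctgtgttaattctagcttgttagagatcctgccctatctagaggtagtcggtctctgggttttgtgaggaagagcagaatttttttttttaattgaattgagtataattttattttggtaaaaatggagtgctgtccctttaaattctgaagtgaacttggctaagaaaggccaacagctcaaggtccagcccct
Tcf7l2: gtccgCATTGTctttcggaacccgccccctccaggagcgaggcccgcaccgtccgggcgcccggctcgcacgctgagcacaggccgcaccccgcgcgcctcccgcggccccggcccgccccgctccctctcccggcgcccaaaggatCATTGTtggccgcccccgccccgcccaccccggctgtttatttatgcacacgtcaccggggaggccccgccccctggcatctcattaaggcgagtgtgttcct
9630013A20Rik: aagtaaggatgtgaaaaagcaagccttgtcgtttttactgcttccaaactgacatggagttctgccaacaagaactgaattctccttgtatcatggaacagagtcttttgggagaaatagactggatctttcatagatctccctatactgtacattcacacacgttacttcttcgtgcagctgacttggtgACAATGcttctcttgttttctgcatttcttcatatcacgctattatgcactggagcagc

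Enpp6 stood at 1308, 1483, 1186, 781 and 1478 CPM in members and Bmp4 at 127, 177, 195, 36.3 and 96.4 CPM. Bcas1 stood at 5674, 5573, 4841, 1902 and 4949 CPM, against 319 to 559.8 CPM in OPCs and 457 to 1021 CPM in mature nuclei. All 3 were lowest in CNO replicate 1. Every member held Enpp6 and 51 held Bmp4, all of them 4-marker nuclei. The rule used these values.

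Most premyelinating genes were higher in members than on either side. Of 18 listed genes, 16 passed the filter on low counts in each comparison. Against OPCs 14 were higher and none lower (background 15% higher and 21.0% lower), with a median log2 fold change of 3.66 against -0.04 over all genes tested. These shares are also the background for the lists that follow. Some lists share genes, which count in each: Tcf7l2, Sox6, Cacng4, Sema3d, Ugt8a, Fa2h and Gal3st1 are among these. Against mature nuclei 15 were higher and none lower (background 7.93% and 5.95%), with a median of 4.03 against -0.03 over all genes. Without CNO replicate 1 the counts were 15 higher and none lower against OPCs and 15 higher and 1 lower against mature nuclei. Many of these genes are known as markers of the stage, so that the list is no independent evidence of its direction.

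Fyn stood at 3901, 4135, 3365, 1545 and 2957 CPM in members, against 243 to 547 CPM in OPCs and 129.9 to 243 CPM in mature nuclei, with no overlap. Itpr2 was 1.70 log2 units above OPCs (SE 0.29) and 5.15 above mature nuclei (SE 0.32). Ust, a sulfotransferase of chondroitin and dermatan sulfate, was 2.75 (SE 0.32) and 4.44 (SE 0.31) above them. Prom1, which encodes the membrane protein prominin, was 6.49 above OPCs (SE 0.41) and 2.91 above mature nuclei (SE 0.47). Cnksr3, a scaffold of Ras signalling, was 4.69 (SE 0.31) and 3.33 (SE 0.33) above them, and Rras2, a Ras-family GTPase, 3.74 (SE 0.29) and 3.27 (SE 0.42). Kndc1 was above OPCs by 3.79 (SE 0.36) and did not pass against mature nuclei (-0.92, SE 0.33, adjusted p = 0.101, edgeR), below which it was called without CNO replicate 1 (-1.35, adjusted p = 0.000212).

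Gpr17 and Neu4 did not pass the test against OPCs. Gpr17, an orphan receptor that restrains maturation, stood at 149.9, 137, 86.0, 54.5 and 32.1 CPM in members and 24.5 to 94.7 CPM in OPCs, with overlap (log2 fold change 0.78, SE 0.35, adjusted p = 0.107, edgeR). Without CNO replicate 1 Gpr17 was called higher than in OPCs (1.23, adjusted p = 0.0025). Neu4, a sialidase, stood at 86.2, 187, 177, 36.3 and 129 CPM in members and 109 to 164 CPM in OPCs, also with overlap (log2 fold change -0.06, SE 0.36, adjusted p = 0.92). Both were above mature nuclei, by 5.45 (SE 0.45) and 6.72 (SE 0.59) log2 units.

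Most progenitor genes were lower than in OPCs, by very different amounts. Of 20 listed, 18 were tested against OPCs, with 16 lower, 1 higher (Tnr) and 1 not called (Sox6), and a median log2 fold change of -2.57. Against mature nuclei 14 were tested, with 10 higher, none lower and 4 not called (median 2.50), or 12 higher of 15 tested without CNO replicate 1. The summed list stood at 22119, 25359, 22592, 7826 and 21051 CPM in members, 36132 to 49607 CPM in OPCs and 2665 to 5711 CPM in mature nuclei. The low library is CNO replicate 1, whose 4-marker nuclei gave 20263 CPM.

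Cspg5, a neural proteoglycan, stood at 7.50, 10.1, 13.6, 12.1 and 0 CPM in members against 402 to 568 CPM in OPCs, and fell by 5.40 log2 units (SE 0.29). Emid1 fell by 6.71 (SE 0.44), Megf11, a surface receptor, by 4.72 (SE 0.41), and Kcnd2, a voltage-gated potassium channel, by 4.14 (SE 0.33). Lhfpl3 fell by 3.70 (SE 0.31) and Pcdh15, a protocadherin, by 3.49 (SE 0.28), and Pcdh15 was not called against mature nuclei (-0.04, SE 0.27, adjusted p = 0.945, edgeR). Pdgfra, a gene of the OPC gate, gave 0, 10.1, 0, 0 and 0 CPM in members.

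Sox6 and Tnr were not lower than in OPCs by the test. Sox6, a transcription factor that holds back terminal differentiation, stood at 2466, 3108, 3052, 909 and 1928 CPM in members, 1555 to 2448 CPM in OPCs and 44.4 to 142 CPM in mature nuclei. The low member library is CNO replicate 1, whose 4-marker nuclei gave 2756 CPM. The difference from OPCs was 0.00 log2 units (SE 0.30, adjusted p = 0.995, edgeR) and from mature nuclei 4.89 (SE 0.29, adjusted p = 6.61e-05). Tnr, the extracellular glycoprotein tenascin-R, stood at 12776, 14608, 11488, 3162 and 11088 CPM in members against 3222 to 4516 CPM in OPCs, higher in 3 of 4 libraries tested (log2 fold change 1.21, SE 0.42, adjusted p = 0.0424), and was 7.07 log2 units above mature nuclei (SE 0.64). The call against OPCs was lost without saline, VPA or the hM3 control (adjusted p = 0.209, 0.215 and 0.23). Gm38039, named below, lies antisense within Tnr. Vcan, a proteoglycan of the matrix, lay between the neighbours, 1.17 log2 units below OPCs (SE 0.32) and 5.87 above mature nuclei (SE 0.37), with the call against OPCs lost without saline or the hM3 control (adjusted p = 0.0628 and 0.0519).

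Transcription factors of the lineage followed several courses. Of 23 listed, 17 were tested in each comparison, with 9 higher, 2 lower and 6 not called against OPCs (median 0.92) and 8 higher, 3 lower and 6 not called against mature nuclei (median 0.74), so that the share lower than in OPCs lay below the background of 21.0%. With CNO replicate 1 left out, 18 were tested in each, with 10 higher and 3 lower against OPCs and 9 higher and 3 lower against mature nuclei. St18, a zinc-finger factor, stood at 5101, 4201, 4297, 4337 and 4114 CPM in members, 13.2 to 360.0 CPM in OPCs and 2822 to 4881 CPM in mature nuclei. Its level was 6.26 log2 units above OPCs (SE 0.62) and 0.22 from mature nuclei (SE 0.26, adjusted p = 0.673, edgeR), with 4-marker nuclei at 4532 CPM and the other 35 at 4476 CPM. Myrf, the activator of myelin genes, was likewise 3.95 above OPCs (SE 0.32) and 0.18 from mature nuclei (SE 0.20, adjusted p = 0.655).

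Sox5 and Myt1 lay between the neighbours, 2.17 (SE 0.24) and 3.19 (SE 0.32) log2 units below OPCs and 2.14 (SE 0.38) and 2.27 (SE 0.50) above mature nuclei. Nkx2-2 and Sox10, activators of oligodendrocyte differentiation, were above both, Nkx2-2 by 0.92 and 2.76 and Sox10 by 0.79 and 1.13 log2 units. Prox1, Nkx6-2 and Zfp536 were below mature nuclei by 1.85 (SE 0.40), 1.95 (SE 0.54) and 1.02 (SE 0.28). The calls of Nkx2-2 and Sox10 against OPCs were lost without saline, VPA or the hM3 control, each in turn (adjusted p = 0.0869 to 0.205), as were those of Prox1, Nkx6-2 and Zfp536 against mature nuclei without saline, VPA or the hM3 control, each in turn (adjusted p = 0.0673 to 0.226). Against mature nuclei the call of Sox10 was lost without saline or the hM3 control (adjusted p = 0.0567 and 0.0707) and that of Myt1 without VPA or the hM3 control (adjusted p = 0.118 and 0.0835).

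Myelin genes were higher in members than in OPCs in all 17 cases tested of 25 listed (median log2 fold change 3.57). Against mature nuclei 22 were tested, with 2 higher, 5 lower and 15 not called (median -0.93). Without CNO replicate 1 this became 2 higher, 12 lower and 8 not called (median -1.93). Mbp, the main cytoplasmic protein of myelin, stood at 4325, 3270, 3392, 4070 and 4467 CPM in members, 52.0 to 556 CPM in OPCs and 2303 to 3756 CPM in mature nuclei. It was 5.07 log2 units above OPCs (SE 0.44) and 0.30 from mature nuclei (SE 0.26, adjusted p = 0.529, edgeR).

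Opalin, a membrane glycoprotein of late oligodendrocytes, stood at 22.5, 30.4, 22.6, 96.9 and 0 CPM in members against 224 to 390.4 CPM in mature nuclei, 2.92 log2 units lower (SE 0.42). Ndrg1, Mal, Plekhh1 and Tspan2 were the other 4 below mature nuclei, by 2.37, 2.24, 2.17 and 1.38. Mobp, a small basic protein of myelin, stood at 442, 208, 344, 2296 and 129 CPM in members, high in CNO replicate 1, and at 177 CPM in pooled 4-marker nuclei against 2656 CPM in the other 35 members. It was called below mature nuclei only without CNO replicate 1 among the libraries left out (-2.43, adjusted p = 1.72e-06). Nfasc, which encodes the adhesion protein neurofascin, and Gjc3, a gap junction protein, were the 2 above mature nuclei, by 2.18 (SE 0.30) and 0.88 (SE 0.24). The calls of Ndrg1, Mal, Plekhh1, Tspan2 and Gjc3 were lost without saline, VPA or the hM3 control, each in turn (adjusted p = 0.0707 to 0.256).

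Of 24 genes of sterol and myelin lipid synthesis, 13 were tested against OPCs, 7 higher and none lower (median 0.80). Against mature nuclei 23 were tested, 2 higher, 1 lower and 20 not called (median -0.12), or 2 higher and 5 lower without CNO replicate 1. Elovl7, a fatty acid elongase, stood at 652, 450.5, 385, 339 and 578 CPM in members, 8.87 to 41.9 CPM in OPCs and 169 to 338 CPM in mature nuclei, above both by 4.86 (SE 0.28) and 0.99 (SE 0.19) log2 units, the latter call lost without saline, VPA or the hM3 control, each in turn (adjusted p = 0.05 to 0.0738). Ugt8a and Fa2h, enzymes of galactolipid synthesis, were 2.23 and 2.47 above OPCs and did not pass against mature nuclei (-0.02, SE 0.25, and -0.12, SE 0.22).

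Receptors for transmitters were mostly lower than in OPCs. Of 24 listed, 22 were tested, with 16 lower, 1 higher and 5 not called (median -2.01, background 21.0% lower and 15% higher), or 14 lower and 3 higher without CNO replicate 1. Against mature nuclei 5 were higher, 4 lower and 13 not called (median 0.59), or 11 higher, 6 lower and 5 not called without CNO replicate 1. Grm5, a metabotropic glutamate receptor, fell by 3.81 log2 units (SE 0.26), and Cacng4, an auxiliary subunit, by 3.13 (SE 0.24). Gria1, an AMPA receptor subunit, was below OPCs by 3.20 (SE 0.37) and below mature nuclei by 2.77 (SE 0.29). Grik2, a kainate receptor subunit, was the 1 higher over the 4 libraries, at 3575, 3346, 3369, 1641 and 3375 CPM in members against 1066 to 1417 CPM in OPCs (1.21, SE 0.25). Gria2, the AMPA subunit that limits calcium entry, was 0.25 from OPCs (SE 0.30, adjusted p = 0.579, edgeR) and 2.71 above mature nuclei (SE 0.37). Without CNO replicate 1 Gria2 (0.65, adjusted p = 0.00565) and Grm7, a metabotropic glutamate receptor (0.91, adjusted p = 0.000712), were also called higher than in OPCs. Grik2 (1.16, adjusted p = 0.000208, edgeR) and Grm7 (0.76, adjusted p = 0.00649) were then also called higher than in mature nuclei. The list of neuronal genes, given below, was lower too, at 371 to 666 CPM in members and 1527 to 2022 CPM in OPCs. The part of neuronal RNA in the receptor values was not tested.

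Semaphorins and their receptors went both ways. Of 15 listed, 14 were tested, with 5 higher and 7 lower than in OPCs (median -0.62) and 6 higher and 1 lower than in mature nuclei (median 0.43), where 1 lower of 14 is near the background of 5.95%. Sema4d stood at 1345, 850.4, 747, 618 and 836 CPM in members, 25.0 to 55.9 CPM in OPCs and 91.0 to 211 CPM in mature nuclei, above both by 4.57 (SE 0.29) and 2.47 (SE 0.24) log2 units. Sema5a (2.02 and 4.43), Sema4a (3.82 and 3.12) and the receptor gene Plxnb3 (2.71 and 1.24) were also above both. The receptor genes Plxna4, Nrp2, Plxnc1 and Plxna2 were below OPCs by 3.55, 2.98, 2.66 and 2.50, and Sema6d, Sema5b and Sema3d by 1.60, 1.34 and 1.13. The call of Sema5b was lost without saline (adjusted p = 0.0592).

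Among Wnt pathway genes Tcf7l1, a repressor of the factor family of Tcf7l2, had the same course. It stood at 517, 618, 494, 182 and 482 CPM in members, 38.4 to 79.7 CPM in OPCs and 14.6 to 65.4 CPM in mature nuclei, above both by 2.82 (SE 0.23) and 3.76 (SE 0.22) log2 units. Of 21 listed, 11 were tested against OPCs (3 higher, 2 lower or 1 lower without CNO replicate 1, median -0.07) and 12 against mature nuclei (2 higher, 2 lower, median 0.06; 4 higher and 3 lower without CNO replicate 1), so that the share lower than in OPCs was near the background of 21.0%. Znrf3 and Rnf43, which remove Wnt receptors, were below OPCs by 0.78 and 1.62, the call of Znrf3 lost without VPA, the hM3 control or CNO replicate 1 (adjusted p = 0.149, 0.0865 and 0.0714). Lef1, Tcf7, Notum, Apcdd1, Wif1 and the receptor gene Fzd7 gave no UMI in members.

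Of 22 genes of the bone morphogenetic protein pathway, Bmp4 not among them, 8 were tested against OPCs (median -0.19). The inhibitor Smad7 was higher (3.15, SE 0.30) and the receptor genes Acvr1 and Acvr2a lower, by 1.78 and 1.05. These counts, 1 higher and 2 lower of 8, are near the background of 15% and 21.0%. Of 9 tested against mature nuclei, Acvr1 was lower by 1.01 and 8 were not called (median -0.18), or 2 lower without CNO replicate 1. The call of Acvr2a was lost without saline, the hM3 control or CNO replicate 1 (adjusted p = 0.199, 0.0533 and 0.078), and that of Acvr1 against mature nuclei without saline, VPA or the hM3 control, each in turn (adjusted p = 0.0753 to 0.193). The antagonist genes Nog and Chrdl1 and the inhibitor Smad6 gave no UMI. Of 18 Notch genes, 6 were tested in each comparison. Notch1 and the coactivator Maml3 were lower than in OPCs by 2.32 and 2.85 (median -0.55, 3 lower without CNO replicate 1). Against mature nuclei Cntn1 and Maml2 were higher by 1.69 and 2.46 and Maml3 was lower by 1.50 (median 0.17). The call of Notch1 was lost without the hM3 control (adjusted p = 0.0552), that of Cntn1 without saline, VPA or the hM3 control, each in turn (adjusted p = 0.0513 to 0.0918) and that of Maml3 against mature nuclei without saline (adjusted p = 0.0683).

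Class I histone deacetylases are inhibited by valproate. Hdac8 was lower than in OPCs by 1.03 log2 units (SE 0.21), Hdac1 (0.72, SE 0.26, adjusted p = 0.052, edgeR) and Hdac2 (0.27, SE 0.32, adjusted p = 0.57) were not called, and Hdac3 did not pass the filter. Hdac1 was called higher than in OPCs when CNO replicate 1 was left out (0.90, adjusted p = 0.0246). None of the 4 was called against mature nuclei, where Hdac2 was higher (0.95, adjusted p = 0.0439) and Hdac8 lower (-0.64, adjusted p = 0.034) without CNO replicate 1. Cell cycle genes were near the floor: 7 of 12, Top2a and Cdk1 among them, gave no UMI in any member, and the 12 together gave 10 of 881435 UMIs. Their summed level was 0 to 20.2 CPM in members and 53.7 to 277 CPM in OPCs, and none passed the filter.

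Among genes called against OPCs alone the largest rises were St18, AC110241.2 (5.77), Cldn11 (5.36), a tight junction protein of myelin, Mag (5.32), a gate gene of the mature stage, Prr5l (5.19), Mbp, Nkain2 (5.04) and Gas7 (4.92). Prr5l and AC110241.2 came mostly from the members without the 4 markers, at 3612 and 805 CPM there and 41.7 and 4.32 CPM in 4-marker nuclei, and without CNO replicate 1 both were called below mature nuclei (Prr5l -2.35, adjusted p = 3.08e-06; AC110241.2 -1.87, adjusted p = 1.13e-05). The 8 genes ranked lowest by fitted values among those called against OPCs alone had no UMI in the members of the 4 libraries, so that their rank rests on fitted values at 0 and only a bound is known. Against a floor of 3 UMIs over the 4 libraries together, Etv4, an ETS factor downstream of receptor tyrosine kinases, was at least 36.7-fold lower than in OPCs. By the same floor 6330576A10Rik was at least 28.8-fold lower, Tacc2 at least 20.5-fold, Disp3 at least 19.5-fold and Mmp15, a membrane metalloproteinase, at least 17.7-fold lower. Dnah5 was at least 13.5-fold, Hmga2, a chromatin protein of growing cells, at least 12.8-fold and Atad2 at least 11.2-fold lower.

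Against mature nuclei alone the largest rises were in genes that did not pass, or did not enter, the test against OPCs. Afap1l2, an adaptor of actin and Src signalling, stood at 266, 334, 317, 121 and 321 CPM in members, 171 to 265 CPM in OPCs and 0.239 to 7.91 CPM in mature nuclei (7.04, SE 0.38, over mature nuclei and 0.12, SE 0.24, over OPCs). The others were 5730559C18Rik (7.38), S100a3 (7.02), Neu4, Gm38039 (6.67), Slc5a7, the choline transporter (6.09), Ptpn14 (5.94) and A930009A15Rik (5.79). Of the 8 genes ranked lowest by fitted values against mature nuclei alone, 3 had no UMI in the members of the 4 libraries, so that their rank rests on fitted values at 0 and only a bound is known. These were Slc13a1, a sulfate transporter, at least 21.6-fold lower than in mature nuclei, Prdx6 (at least 6.50-fold) and St8sia4 (at least 5.91-fold). The others were Fbxw15 (log2 -4.76), Gm26905 (-4.69), Slc7a15 (-4.51), Itgad (-4.39) and the cytokine Il33 (-4.19). None of the 8 entered the test against OPCs. By the floor of 3 UMIs Prdx6 was at least 6.08-fold and St8sia4 at least 8.43-fold lower than in OPCs. Gm26905 had a mean of 1.265 CPM in members and 37.7 CPM in OPCs. For Slc13a1, Fbxw15, Slc7a15, Itgad and Il33 the means were 0, 2.65, 0.937, 1.51 and 11.0 CPM in members. In OPCs they were 2.77, 1.08, 0, 0.982 and 14.7 CPM. Il33 was at 1.44 CPM in 4-marker nuclei and 42.9 CPM in the other 35. Slc5a7 was also called above OPCs when CNO replicate 1 was left out (1.22, adjusted p = 0.018). The calls of Prdx6 and St8sia4 were lost without saline, VPA or the hM3 control, each in turn (adjusted p = 0.0536 to 0.0835), that of Slc7a15 without saline (adjusted p = 0.0683) and that of Itgad without saline (adjusted p = 0.056).

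Lower than both neighbours, the named genes were Rapgef3 (an exchange factor of Rap GTPases), Gria1, Cntnap5b, Fstl5 and the imprinted gene Usp29. Rapgef3 was lower by 3.18 (SE 0.50) than in OPCs and by 3.10 (SE 0.54) than in mature nuclei, and Usp29 by 3.60 (SE 0.43) and 2.58 (SE 0.37), in 4 of 4 libraries, with the call of Rapgef3 against mature nuclei lost without saline (adjusted p = 0.0553).

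Genes of other cell types were low in members. The neuronal list summed to 371 to 666 CPM in members, 1527 to 2022 CPM in OPCs, 1189 to 3259 CPM in mature nuclei and 10964 to 13785 CPM in nuclei over the neuronal limit, with 5 of 5 tested lower than in OPCs and 1 of 6 lower than in mature nuclei, or 2 of 6 without CNO replicate 1. The 1 over the 4 libraries was Meg3, a long non-coding RNA abundant in neurons, below both by 1.70 (SE 0.24) and 1.72 (SE 0.25). The astrocyte list summed to 101, 81.0, 95.1, 399.8 and 96.4 CPM in members, highest in CNO replicate 1, where the 4-marker nuclei gave 19.4 CPM. Of this list 2 of 2 were lower than in OPCs and 0 of 3 were called against mature nuclei, or 3 lower of 4 without CNO replicate 1. The microglial list summed to 18.2 to 129 CPM with 4 of 8 genes at 0 (Csf1r, Tmem119, C1qa, Inpp5d) and 1 of 1 tested, P2ry12, lower than in OPCs, a call lost without saline, VPA, the hM3 control or CNO replicate 1 (adjusted p = 0.0562, 0.0698, 0.131 and 0.0861). The vascular list summed to 0 to 15 CPM with 6 of 9 genes at 0, and the ependymal list to 0 to 42.4 CPM with 4 of 6 at 0.

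The 110 4-marker nuclei differed among themselves along the lineage. Per nucleus the progenitor list ranged from 17.1 to 500 per 10000 UMIs (median 269), the myelin list from 11.4 to 303 (median 161) and the premyelinating list from 91.9 to 421 (median 258). The progenitor and myelin lists ran against each other, with a Spearman correlation of -0.81 and a Pearson correlation of -0.81 over the 110 nuclei. The Spearman correlation was -0.84 in saline (31 nuclei), -0.75 in VPA (46) and -0.74 in the hM3 control (20). Nuclei share libraries, and shares of 1 total tend to move against each other, so these values are a description.

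Bmp4 UMIs lay in 11 of 31 4-marker nuclei in saline, 22 of 46 in VPA, 13 of 20 in the hM3 control, and 3 of 7 and 2 of 6 in the CNO libraries. In nuclei over the neuronal limit the share with a Bmp4 UMI was 0.162 to 0.581%. The 51 4-marker nuclei with Bmp4 and the 59 without were set side by side after the data were seen, and no test is given. Bmp4 is a gene of the rule, so a nucleus without it needed at least 3 Enpp6 UMIs and one with it could hold fewer. Whether a Bmp4 UMI is seen also depends on depth. Vcan was at 1029 against 345 CPM, Sox6 at 4084 against 2191 CPM and Nkx2-2 at 194 against 54.7 CPM, higher with Bmp4. Gpr17 was at 182 against 98.5 CPM when pooled, but at 127 against 159.7 CPM within VPA. Lower with Bmp4 were Rras2 (63.7 against 654 CPM), Tmem2, a hyaluronidase of the cell surface (36.4 against 424 CPM), Prom1 (57.7 against 519.8 CPM), Cnksr3 (762 against 2361 CPM), Sema6a (215 against 867 CPM) and Grm7 (519 against 2725 CPM). Tcf7l2 (2752 against 3937 CPM) and Fyn (4831 against 3658 CPM) differed less. The values are pooled over libraries, which hold unlike shares of both sets. Within saline, VPA and the hM3 control, each taken alone, the genes given as higher or lower with Bmp4 kept that side, and Tmem2 was at 141 against 554, 0 against 117 and 8.04 against 223 CPM. The pooled values come mostly from these libraries, so that the shared side is no separate check.

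**Figure D5:**
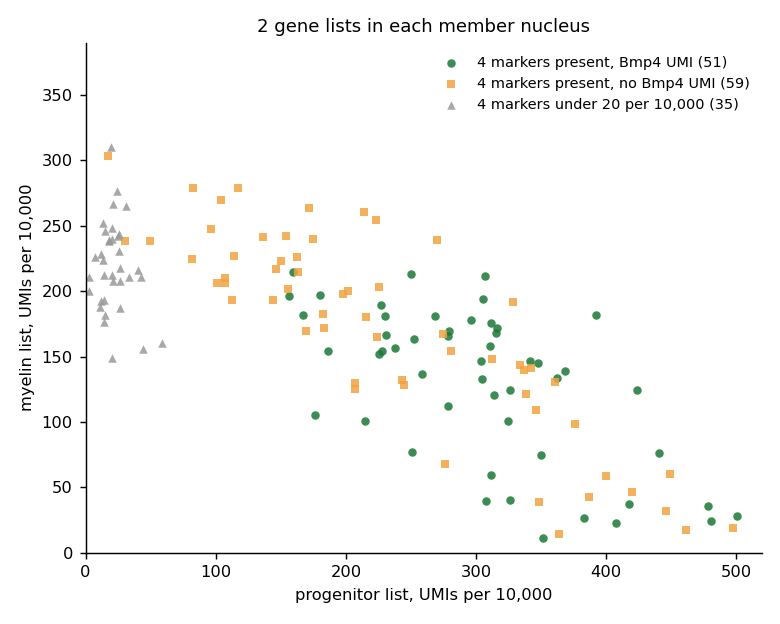
UMIs per 10000 of the progenitor list (horizontal) and the myelin list (vertical) in each of the 145 members, as the 51 4-marker nuclei with a Bmp4 UMI, the 59 without, and the 35 members without the 4 markers. The 35 lie at 58.8 per 10000 or less on the progenitor axis, and the 4-marker nuclei spread from 17.1 to 500.

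Between the saline and VPA libraries most genes of the members differed by less than 2-fold. Of 2558 genes with at least 30 UMIs over both, 147 (5.75%) were past 2-fold on the log2 scale of CPM plus 10 with a counting interval that leaves out 0, 61 higher in VPA (2.38%) and 86 lower (3.36%). These intervals cover counting error only. The premyelinating list held 1 gene higher and 4 lower of 16 measured (median log2 ratio -0.35, against 0.03 over all genes measured). The myelin list held 1 lower of 14 (median -0.31) and the progenitor list none of 13 (median 0.19).

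Of the 5 largest each way, Dct, the melanin-pathway enzyme dopachrome tautomerase, was at 30 CPM in saline (8 UMIs in 5 nuclei) and 172 CPM in VPA (34 UMIs in 9 nuclei, 12 of them in 1 nucleus). In the second experiment, whose mice had VPA as well, it was at 4.53, 18.2 and 0 CPM. Lrrn3, Iqch, Rtkn2 and Kcnj3, a potassium channel subunit, were higher in VPA by 2.17, 1.88, 1.72 and 1.69 on this log2 scale. In the second experiment Kcnj3 was at 186, 188 and 129 CPM against 63.7 CPM in saline. Of its UMIs 16 of 31 in CNO replicate 1 and 3 of 4 in CNO replicate 2 lay in 1 nucleus of the library, without which the levels were 96.6 and 37.2 CPM, the latter below saline. Lrrn3 was at 58.9, 48.5 and 96.4 against 22.5 CPM, with 3 of 8 and 2 of 3 UMIs of the CNO libraries in 1 nucleus of each (32.2 and 43.4 CPM without it). Rtkn2 was at 113, 103 and 0 against 37.5 CPM and Iqch at 45.3, 24.2 and 32.1 against 30 CPM.

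Tmem2 was at 386 CPM in saline (103 UMIs in 9 nuclei, 40 of them in 1 nucleus) and 55.7 CPM in VPA (11 UMIs in 3 nuclei). Its log2 ratio was -2.59, and -3.64 without the nucleus with most of its UMIs in each library. Man1a, a mannosidase of the Golgi, was at 502 and 75.9 CPM, and Eml1, a microtubule-binding protein, at 502 and 70.9 CPM. Creb5, a factor of the CREB family, was at 161 CPM in saline, with 24 of 43 UMIs in 1 nucleus, and at 10.1 CPM in VPA, a log2 ratio of -3.09 with a counting interval of -7.08 to -2.05. In the second experiment, in which all mice had VPA, Creb5 was at 63.4, 291 and 32.1 CPM, Eml1 at 245, 363 and 64.3 CPM and Man1a at 67.9, 321 and 0 CPM. In CNO replicate 1 the nucleus with most UMIs of each gene held 30 of 60 Eml1 UMIs, 28 of 53 of Man1a and 16 of 48 of Creb5, and the levels without that nucleus were 198, 162 and 211 CPM. The 1 Creb5 UMI and both Eml1 UMIs of CNO replicate 2 also came from 1 nucleus each, and in the hM3 control 8 of 15 Man1a UMIs did. Mature nuclei of saline and VPA held Creb5 at 660.4 and 728 CPM, Eml1 at 335 and 298 CPM and Man1a at 603 and 759 CPM. Of the members of CNO replicate 1, 19 of 26 were not 4-marker nuclei, and the part of this in its values was not tested.

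Bmp4, a gene of the rule, was seen in 11 of 31 4-marker nuclei in saline and 22 of 46 in VPA, with no test made. The median depths of these nuclei were 7179 UMIs in saline and 3937.5 UMIs in VPA. Within each library Tmem2 was higher in nuclei without Bmp4. In the 4-marker nuclei without Bmp4 alone it was at 554 CPM in saline and 117 CPM in VPA. The part of the Bmp4 shares in the differences of Tmem2 and of the other genes between these libraries was not tested. In VPA 9 of 11 Tmem2 UMIs lay in 1 nucleus. In the second experiment Tmem2 was at 63.4, 242 and 0 CPM, but 38 of 40 UMIs of CNO replicate 1 lay in 1 nucleus, and without it the level was 13.2 CPM. Ttr, a transport protein secreted in quantity by the choroid plexus, was at 157 CPM in saline members and at 0 in VPA, at least 10.4-fold lower by a floor of 3 UMIs in the library. In the same libraries it was at 697 and 0 CPM in OPCs and at 207 and 0 CPM in mature nuclei, so that the difference was not confined to members. Members of the 3 libraries of the second experiment had no Ttr UMI.

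With 7 members in CNO replicate 2, no count of genes past a fold was made for CNO against its control. Side by side, the 4-marker nuclei of the hM3 control (20) and of the CNO libraries (7 in replicate 1, 6 in replicate 2) had premyelinating list sums of 24370, 30452 and 20843 CPM, with the control between the CNO libraries. Progenitor list sums were 26752, 20263 and 22738 CPM, lower in both CNO libraries, and myelin list sums 14093, 16090 and 15615 CPM, higher in both. In saline and VPA the myelin sums of 4-marker nuclei were 18838 and 14888 CPM, a larger gap than that within the second experiment. These sums rest on 6 and 7 nuclei in the CNO libraries and have no test.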

How the data were processed

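Nuclei of the paraventricular hypothalamus were profiled in 5 libraries (saline 1, VPA 1, hM3 control 1, CNO 2), grouped by the submitters' labels. The deposited values are UMI counts per gene and nucleus, made by the authors with Cell Ranger 7.0.1, per the file headers and the submitters' processing notes, which also name mm10; the strand and intron settings are not given in the sources used here. The matrices held 31054 features and were already filtered for cells. The members and gene lists were chosen with earlier results of these data known.

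Counts of 1000 or more UMIs and at most 5% mitochondrial UMIs were required, and nuclei were then gated as described. Counts were summed per library and stage and tested with edgeR 4.0.16 in R 4.3.3 (TMM scaling, filter on low counts, quasi-likelihood test, Benjamini-Hochberg adjustment), tested on simulated data first. The 2 stages of a library come from the same pool of mice, so the library was a block; nothing else pairs the samples. Mitochondrial genes, Cre and the gate genes of the rule and of the OPC gate were not tested, nor were Mog, Mag and Aspa against mature nuclei; all stayed in the library sizes. P-values judge the difference between stages within a library against its spread over these libraries, which are of unlike conditions. Each SE is the absolute log2 fold change divided by the square root of the F statistic. Doublet scores came from Scrublet in scanpy 1.11.5. Its automatic calls (1 to 159 a library) were not used, and no nucleus was removed. In an alternative the top scores were left out at 0.8% for every 1000 nuclei in the library, which came to 3.94 to 8.82% of each library. Gene positions come from GENCODE vM21, which matched 30934 features.

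The named genes were the 15 highest above both neighbours and the 5 lowest below both, the 8 largest each way in each comparison alone (higher stage at 20 CPM or more), the 5 largest each way between VPA and saline, list members called or among the 4 most abundant of their list, and the gate genes. Alternatives were DESeq2 1.42.0, no filter, no block, stricter gates, no doublets, thinning, and leaving out each library. Selections on the 4 markers, and leaving out the nucleus with most UMIs, were chosen after seeing the data. Some genes that the rule names are not reported here.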

Additional observations from a re-analysis of the deposited data

How the results depend on the processing

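Against OPCs the count of called genes (1944) stayed within 1.5 times under every alternative run, from 1378 (fewer than 3 UMIs of other-class markers) to 2800 (no filter on low counts), and ran from 1516 to 2192 when 1 library was left out. Against mature oligodendrocytes (1071) it was 1720 with no filter, 1916 with at least 5 Enpp6 and Bmp4 UMIs, which leaves 3 libraries without CNO replicate 1, and ran from 426 (without saline) to 1884 (without CNO replicate 1), with 490 without VPA and 455 without the hM3 control. Genes higher and lower against mature nuclei numbered 612 and 459, but 677 and 1043 with no filter, 903 and 1013 with at least 5 gate UMIs and 895 and 989 without CNO replicate 1. Without the library block the counts were 1991 and 1182, and by DESeq2 1555 and 1040. Of 135 named genes called against OPCs 22 lost the call in some setting, and of 97 called against mature nuclei 33 did; none changed sign. The VPA minus saline share (-0.213 percentage points) was -1.46 of lineage nuclei, -0.233 with at least 5 gate UMIs and -0.662 of the lineage with the 4 markers. It changed sign to 0.0470 with the 4 markers in place of the rule, 0.0578 thinned to 2000 UMIs and 0.0748 with both. Of lineage nuclei the share was 8.55% in saline and 9.85% in VPA with at least 2000 UMIs, and 4.87% and 9.09% thinned. With fewer than 3 UMIs of other-class markers it was 1.26% of nuclei in saline and 0.594% in VPA. The CNO minus control share (-0.177) was -3.49 of the lineage, -0.287 with at least 5 gate UMIs, -0.253 with the 4 markers at 20 per 10000 or more, -3.07 of the lineage with them, -0.222 with them in place of the rule, -0.168 thinned and -0.174 with both. It was -0.419 without CNO replicate 1 and 0.0645 without CNO replicate 2, so its sign rests on the latter. Genes past 2-fold between VPA and saline numbered 63 of 1264 (4.98%) at 60 UMIs or more in place of 147 of 2558 (5.75%), and 182 of 2558 (7.11%) with a pseudocount of 1. The gene count for CNO against control was not run, since CNO replicate 2 held 7 members.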

Other observations

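Interferon-response genes had higher sums in the libraries of the second experiment, in members and in both neighbours, with no test made. The 22 listed genes summed to 109, 152, 878, 757 and 1703 CPM in members, in the order of libraries used above. In OPCs the sums were 144, 133, 858, 891 and 1489 CPM and in mature nuclei 97.4, 123, 1674, 1193 and 1446 CPM. Every library of the second experiment lay above both libraries of the first in all 3 stages. Between the stages 1 of 6 tested, Stat2, was higher than in OPCs (1.00, SE 0.28), near the background of 15%. Of 10 tested, 1, Xaf1, was lower than in mature nuclei by 2.07 log2 units (SE 0.52), with a background of 5.95%. The call of Stat2 was lost without saline (adjusted p = 0.0688) and that of Xaf1 without saline, VPA or the hM3 control (adjusted p = 0.0971, 0.0886 and 0.173). The experiments differ in mouse line, age, virus injection and postnatal treatment, and all mice of the second had prenatal VPA, which the saline library lacks; these cannot be told apart here.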
